A study of Schizosaccharomyces pombe with 22 samples.

Results

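Lariat reads after heat shock were set against lariat reads in rich media, intron by intron, in the fission yeast Schizosaccharomyces pombe. The members were all annotated introns whose heat shock, rich media and diauxic shift reads add up to the listed total in every branch row. Of 4701 listed introns 2812 had lariat reads, 2767 had complete counts and 2731 of these had heat shock or rich media reads. Alternate splice sites, exon skips and introns outside the annotation were compared between the same columns. Both conditions used the haploid strain 972h- lacking dbr (dbr1), the enzyme that opens lariats, so every value is from cells that keep their lariats. Rich media cells grew at 30 °C, per the labels. The heat shock temperature and its duration are not given in the sources used here. Each condition had 4 libraries of total RNA made with a custom protocol that does not keep the strand, as a long and a short gel fraction of 2 replicates. Those libraries are summed in 1 column per condition, so there is no replicate error, no test between the conditions is possible, and intervals are 95% intervals of the counting error only. PCR copies were not told apart from separate molecules.

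During splicing the 5' end of an intron is joined to an adenosine near its 3' end, the branch point, which makes a lariat with a loop and a short tail. Debranching normally opens the lariat so that it is degraded quickly. A read across the joint therefore places the 5' splice site and the branch point of a splicing event on the genome, in RNA that has left the transcript. Heat shock in yeasts is known to induce chaperone genes and to lower the output of ribosomal protein genes.

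The introns that best show the comparison are printed 5' to 3' from the RefSeq reference genome, build ASM294v3. Capitals mark the first 6 bases of the intron and the 5 bases of the branch motif, whose last base but 1 is the branch point. The first pair are both introns of tif211, which encodes the alpha subunit of the initiation factor eIF2, at I:3166526-3166587 and I:3166759-3166864 on the plus strand, shown because they lie on opposite sides of introns of like length.
tif211 intron 1: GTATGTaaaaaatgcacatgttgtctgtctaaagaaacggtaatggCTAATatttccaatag
tif211 intron 2: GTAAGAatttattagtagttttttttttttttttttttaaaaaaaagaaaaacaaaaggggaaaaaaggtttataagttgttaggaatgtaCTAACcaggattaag
The next 3 are introns that lay far above (ubc4, II:715453-715531, plus strand) or far below (tlg1, II:2393703-2393793, plus strand, and klp9, II:3007188-3007315, minus strand) introns of like length.
ubc4 intron 1: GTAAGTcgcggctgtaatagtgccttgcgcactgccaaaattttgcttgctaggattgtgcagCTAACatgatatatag
tlg1 intron 1: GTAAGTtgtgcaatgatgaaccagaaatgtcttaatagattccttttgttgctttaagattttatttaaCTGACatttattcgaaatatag
klp9 intron 2: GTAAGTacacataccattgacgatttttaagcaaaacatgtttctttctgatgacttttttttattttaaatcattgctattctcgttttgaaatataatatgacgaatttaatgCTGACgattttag
The last pair are the introns with the largest moves between branch points (sdh1, I:3798227-3798347, and spt20, I:5371541-5371622, both minus strand), with the motifs of both most used branch points in capitals. In spt20 these motifs share a C.
sdh1 intron 1: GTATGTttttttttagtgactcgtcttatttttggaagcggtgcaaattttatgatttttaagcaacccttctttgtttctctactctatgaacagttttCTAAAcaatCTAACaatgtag
spt20 intron 1: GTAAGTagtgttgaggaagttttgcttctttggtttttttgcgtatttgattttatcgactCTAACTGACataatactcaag
These introns lie within coding spans. On the reference, all 17799 branches of the series had GT at the 5' splice site and A at the branch point.

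The heat shock column held 414698 reads at complete annotated introns and the rich media column 1253548, and ratios below are scaled by these sums. Over all classes the authors assigned 9467948 lariat library reads to heat shock and 53284863 to rich media, of which 72.0% and 68.2% lay in introns and 19.3% and 22.8% in rRNA. Of the 2731 introns 1910 were seen in both conditions, 18 in heat shock only and 803 in rich media only. The introns seen in heat shock only reached 11 reads and those seen in rich media only reached 161 reads. Their median listed lengths were 151.5 and 57 bases.

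Long lariats were over-represented and short lariats under-represented after heat shock. Among 1299 introns of 1049 genes with at least 50 reads in the higher condition, the scaled ratio of heat shock to rich media had a median of 0.113 at listed lengths up to 50 bases. The median ratio was 0.340 at 71 to 80 bases, 0.748 at 91 to 100 bases and 2.99 above 120 and up to 150 bases. Beyond that it stayed level, with medians of 3.02 up to 200 bases and 2.78 up to 300 bases. Spearman's rho between length and log2 ratio was 0.81 across the 1299 introns, which share the same libraries. Counted from the 5' splice site to the branch point, part of the change came as a step within a few bases. The median log2 ratio was -0.82 in 41 introns with loops of 102 to 105 bases, 0.37 in 22 introns of the next 4 bases, up to 109, and 1.56 in 28 introns of 110 to 113 bases. Loops of 102 to 105 bases had a log2 ratio above 0 in 7 of 41 introns, and loops of 110 to 113 bases in 27 of 28. Long and short gel fractions are added up in each column, so the mix of fractions and the growth condition cannot be told apart for this length trend.

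**Figure D1:**
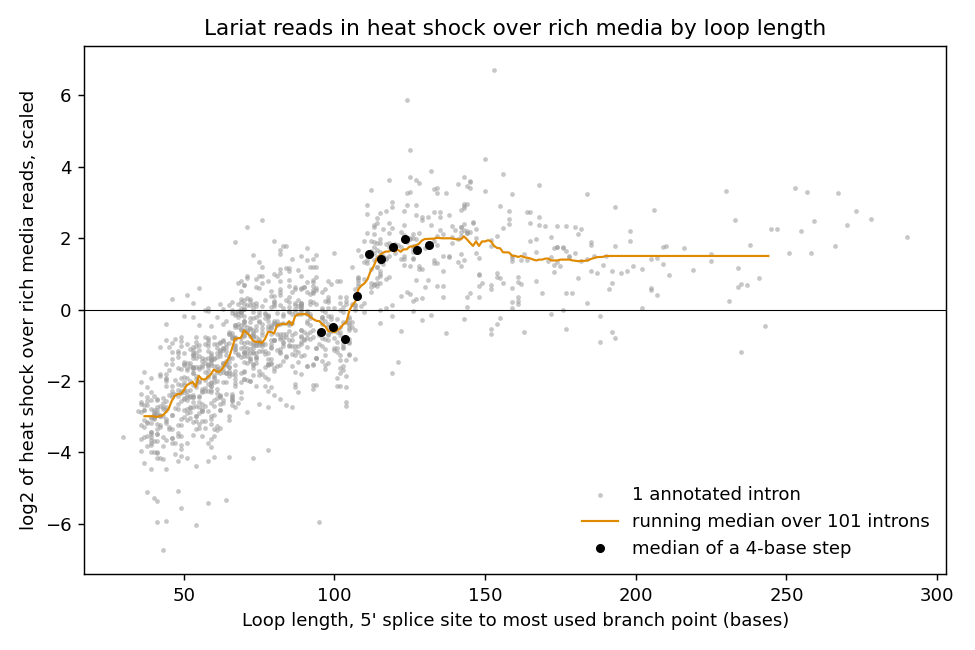
Each grey point is 1 of 1299 annotated introns, placed by its loop length in bases (x axis) and its log2 ratio of heat shock to rich media reads scaled by annotated reads (y axis); the line is the running median over neighbours in length and black points are medians of 4-base steps. The black points step up between loops of 102 to 105 bases (median -0.82) and loops of 110 to 113 bases (median 1.56).

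Because of this trend each intron was set against its length peers, itself and the 100 measured introns nearest in length. The difference is its log2 ratio minus their median, with 0.5 added to each count. An intron was called above or below its peers where the difference passed 1, which is 2-fold, and its counting interval lay clear of the peers. Heat shock reads were above the peers at 169 introns, 13.0% of those measured, and below them at 179, or 13.8%. The spread was not a matter of low counts alone. The SD of the difference was 1.28 among 341 introns with 50 to 149 reads in both conditions together and 0.89 among 265 introns with at least 1500 reads. No replicate error is available to set it against. The reads of an intron do not separate the number of transcripts from splicing and from lariat recovery. In bulk cultures, fewer cells expressing a gene and less RNA per cell cannot be told apart.

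The largest difference above the peers was at res2, a subunit of the MBF factor that drives transcription for DNA synthesis. Its intron had 86 heat shock reads and 2 rich media reads, a log2 difference of 4.93 (interval 3.34 to 8.31). Intron 2 of spp27, a subunit of the upstream activation factor of RNA polymerase I, had 202 heat shock reads and 10 rich media reads, a difference of 4.24 (3.40 to 5.39). Both have few reads in rich media, which the widths of their intervals show. The intron of ubc4, a ubiquitin-conjugating enzyme, rests on many more reads, with 1894 in heat shock and 1552 in rich media. It lay 2.97 above its peers (2.87 to 3.07), and with 44.3% GC it is the richest in G and C of the introns printed. SPBP8B7.32, a gene of unknown function, had 2168 heat shock reads and 1331 rich media reads, a difference of 3.20 (3.10 to 3.30).

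Other introns lay above their peers as well. Intron 3 of osh6, an oxysterol-binding protein, had 984 heat shock reads and 780 rich media reads, a difference of 2.59 (2.45 to 2.73). The intron of prh1, an RNA helicase, had 6004 heat shock reads and 6259 rich media reads, a difference of 2.31 (2.26 to 2.36). The stalk protein gene rpp101 had 260 heat shock reads and 35 rich media reads, a difference of 2.76 (2.26 to 3.33). Heat shock reads outnumber rich media reads at rpp101, with a scaled ratio of 22.5. The other introns among the 15 largest differences were those of guf1 (3.10), sfc9 (2.74), SPBPJ4664.05 (2.65), ssb3 (2.42), atp15 (2.34), bor1 (2.31), rpl3601 (2.28) and vps4 (2.21). Several of these are short introns whose scaled ratio is near 1 and whose peers are far below 1. At vps4 intron 1, with 43 heat shock reads and 131 rich media reads, the scaled ratio was 0.992 (the peers' log2 median was -2.21).

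Introns below their peers included several with no heat shock read. Intron 2 of tif211 had 0 heat shock reads and 93 rich media reads, and 63 diauxic shift reads in the same table. With 3 reads standing in for 0 it lay at least 8.52-fold below its peers. The same bound was 3.68-fold for caf16, listed as a CCR4-Not subunit, with 0 against 71 reads, and 3.28-fold for intron 1 of mis16, a chaperone of centromeric histones, with 0 against 99 reads. It was 2.27-fold for mrpl33, a mitochondrial ribosomal protein, with 0 against 161 reads, and 2.09-fold for intron 5 of cdc27, a DNA polymerase delta subunit, with 0 against 60 reads. These bounds leave out counting error and rest on listed length. The loop of caf16 has 49 bases and its listed length is 80. Its difference was -4.48 by listed length and -3.20 by loop length, so its bound would be smaller by loop length. For rdl2 intron 3, naa20 and rpt1, which also had 0 heat shock reads, the bound was under 2-fold (1.53, 1.53 and 1.42).

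Among introns with heat shock reads, tlg1 lay lowest. This SNARE gene of the endosomal system had 6 heat shock reads and 352 rich media reads, a difference of -3.66 (-5.23 to -2.64). Intron 2 of klp9, a kinesin of the mitotic spindle, had 27 heat shock reads and 285 rich media reads, a difference of -3.27 (-3.92 to -2.72). Its loop of 119 bases lies beyond the length step, where most introns had ratios above 1, and its own scaled ratio was 0.286. The intron of its8, an enzyme of GPI anchor synthesis, had 83 heat shock reads and 397 rich media reads, a difference of -2.68 (-3.05 to -2.34). The ribosome assembly factor ltv1 had 11 heat shock reads and 95 rich media reads (-3.17), rpl14 had 10 and 72 (-2.70), and intron 2 of spt20 had 1 and 69 (-3.30). Intron 2 of yop1, a membrane protein of the endoplasmic reticulum, had 72 heat shock reads and 653 rich media reads. Its difference was -2.72 by listed length and -1.19 by loop length, since its loop of 103 bases falls before the step and its listed length of 124 bases after it.

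**Figure D2:**
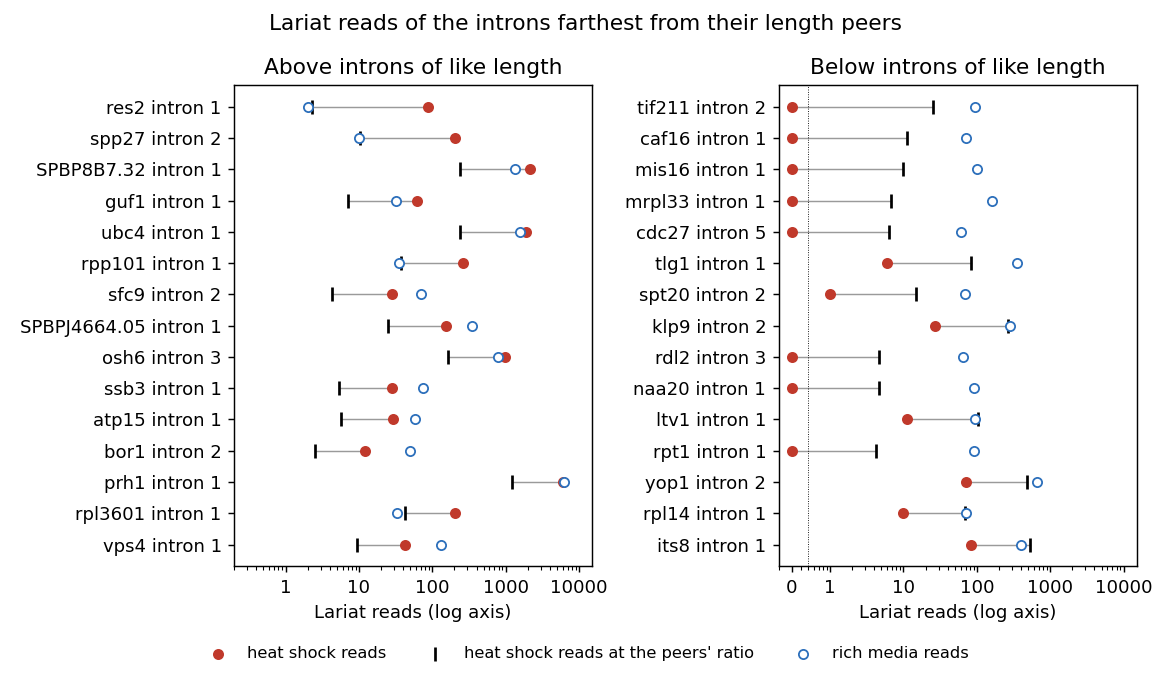
Lariat reads (log axis, with 0 at the left edge) of the 15 introns farthest above and the 15 farthest below their length peers; filled points are heat shock reads, bars the heat shock reads that the peers' ratio would give, open points rich media reads. The filled points sit right of the bars in the left panel, as for ubc4 with 1894 heat shock reads, and left of them in the right panel, where 8 introns have 0 heat shock reads.

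Calls in gene lists are read against those over all 1299 introns, 13.0% above and 13.8% below with a median of 0. Of 13 measured introns of heat shock proteins and chaperones, 2 lay above their peers (15.4%) and 3 below (23.1%), with a median difference of 0.15. By loop length 1 lay above and 3 below. Intron 2 of fkh1, an FKBP-type prolyl isomerase, had 191 heat shock reads and 46 rich media reads (2.15). The intron of the p23 co-chaperone wos2 had 133 heat shock reads and 461 rich media reads (-1.62), and intron 3 of the chaperonin subunit cct6 had 37 and 90 (-1.36). Of 11 introns of stress and redox genes, 2 lay above (18.2%) and 1 below (9.09%), with a median of -0.12. Those above include intron 2 of gcs2, a subunit of an enzyme of glutathione synthesis, with 114 heat shock reads and 23 rich media reads (2.09). Intron 4 of prr1, a stress-responsive transcription factor, had 1679 and 665 (1.06).

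Ribosomal protein genes, with 51 introns, had 10 above (19.6%), 6 below (11.8%) and a median of 0.12, against 13.0% and 13.8% over all introns. Gene copies of the same protein differed. For L36, rpl3601 had 206 heat shock reads and 33 rich media reads (2.28), and rpl3602 had 17 and 449 (-1.43). Their introns differ in listed length, 162 and 76 bases, and the loop of rpl3602 has 18.5% GC and a run of 13 equal bases. Whether this has a part in the contrast was not tested. For eL38, intron 2 of rpl3801 had 597 heat shock reads and 335 rich media reads (1.00), and intron 2 of rpl3802 had 20 and 273 (-1.51). Both copies of eL43 lay above their peers, rpl4301 with 7535 heat shock reads and 8042 rich media reads (1.64) and rpl4302 with 73 and 454 (1.13). Of 21 introns of ribosome biogenesis genes, 1 lay above (4.76%) and 4 below (19.0%), with a median of -0.29.

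In splicing factor genes 3 of 31 introns lay above (9.68%) and 1 below (3.23%), with a median of -0.18, against 13.0% and 13.8% over all introns. By loop length 3 lay above and 3 below. Those above were snu13, also a U3 snoRNP protein, with 5071 heat shock reads and 1352 rich media reads (1.51), cwf12 (1.44) and prp39 intron 6 (1.43). The one below, sap18 (-2.16), is annotated as a histone deacetylase complex subunit. RNA decay and polyadenylation genes had 6 of 26 introns above (23.1%) and 4 below (15.4%), and by loop length 4 and 4. Intron 2 of the CCR4-Not gene not2 (1.86) and the intron of the meiotic RNA regulator mmi1, with 1278 and 596 reads (1.2), lay above. Those of the exosome nuclease dis3, with 54 and 241 reads (-2.33), and of the poly(A) nuclease gene pan3, with 123 and 422 (-1.89), lay below. The member pab1 (1.48) is annotated as a phosphatase subunit.

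The remaining lists had calls in both directions, except glycolysis, and most rest on few calls. Ubiquitin and proteasome genes had 9 above (13.6%) and 7 below (10.6%) of 66 introns, near the 13.0% and 13.8% over all introns, and 8 and 10 by loop length. Mitochondrial respiration genes had 6 (16.2%) and 5 (13.5%) of 37. Mitochondrial translation genes had 3 and 3 of 15, secretory genes 7 (10.1%) and 8 (11.6%) of 69, and meiosis and mating genes 6 (21.4%) and 3 (10.7%) of 28. Cell cycle and replication genes had 5 (12.5%) and 9 (22.5%) of 40, translation factors 2 (14.3%) and 3 (21.4%) of 14, and glycolysis and glucose use 1 and 0 of 5. Median differences of the 14 lists ran from -0.55 for translation factors to 0.44 for glycolysis, with 5 introns in the second. The small ubiquitin-like modifier gene pmt3 had 3680 heat shock reads and 4940 rich media reads (1.83). The cytochrome c1 gene cyt1 had 1337 and 2598 (1.46), and intron 4 of the GTPase gene ypt1 had 1814 and 448 (1.80).

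Introns of the same gene did not share a direction beyond what introns of different genes did. In 206 genes with several measured introns there were 250 pairs of neighbouring measured introns. Pearson's r of their differences was -0.04 and Spearman's rho 0.00036, as a description across introns of the same libraries. In the 42 pairs with at least 500 reads in each intron, rho was 0.080. The SD within genes was 1.09, against 1.07 over the same 456 introns. Of the 250 pairs, 9 were called in opposite directions and 5 in the same direction, 1 of them above and 4 below.

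The widest gap was in tif211. Its intron 1 had 32 heat shock reads and 111 rich media reads, 1.98 above its peers (1.35 to 2.54), while intron 2, further along the same transcript, had 0 and 93. The deepest opposite pair was in mug161, a splicing factor of the CwfJ family. Its intron 1 had 723 heat shock reads and 1076 rich media reads (1.41), and its intron 2 had 436 and 5808 (-1.67). In dip1, an endocytosis gene, intron 2 had 1140 heat shock reads and 1095 rich media reads (2.09) and intron 3 had 26 and 164 (-1.47). In mug182, an NADHX epimerase gene, intron 1 had 712 heat shock reads and 725 rich media reads (2.18) and intron 3 had 7 and 131 (-1.71). The frataxin gene fxn1 ran the other way, with 40 and 696 reads at intron 1 (-1.61) and 58 and 13 at intron 2 (1.66). The remaining opposite pairs were in rdl2, spt20, yfh7 and vps4. A pair called alike was in mis14, a kinetochore gene, with 97 heat shock reads and 1857 rich media reads at intron 1 (-2.0) and 93 and 370 at intron 2 (-1.90). Intron 3 of dip1 is the weakest of these, at -0.65 by loop length, where it is not called.

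**Figure D3:**
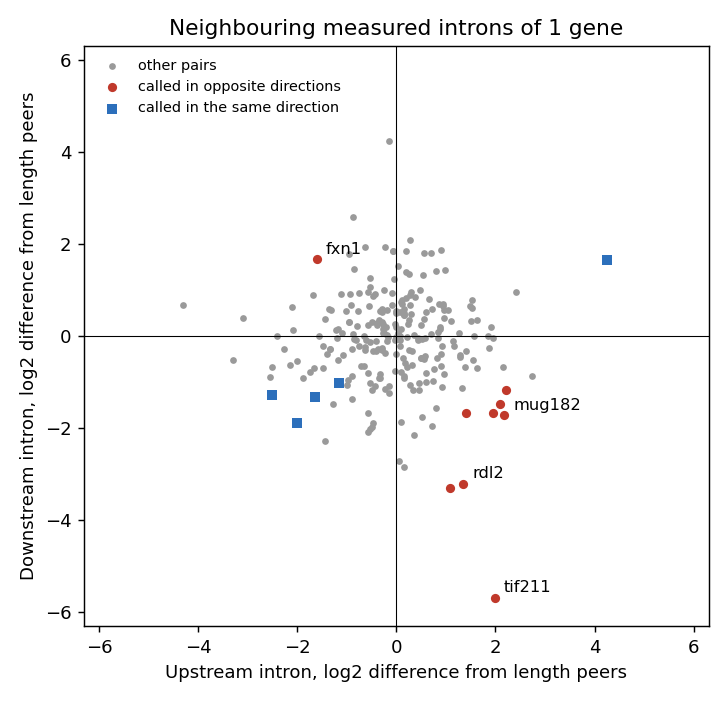
Each point is a pair of neighbouring measured introns of 1 gene, with the log2 difference from length peers of the upstream intron (x axis) and of the downstream intron (y axis), heat shock over rich media. The 250 pairs form a round cloud, with 9 pairs called in opposite directions in red and 5 called in the same direction in blue.

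The base composition of the loop moved with the difference. Introns were split into 5 groups of like size by GC content. In the lowest group (13.8% to 26.4% GC), 15 of 259 introns lay above their peers and 69 below, or 5.79% and 26.6%. In the highest group (34.1% to 49.0%), 49 of 260 lay above and 14 below, or 18.8% and 5.38%, against 13.0% and 13.8% over all. The median difference was -0.39 in the lowest group and 0.26 in the highest. Spearman's rho was 0.28 over the 1299 introns and 0.34 over the 265 with at least 1500 reads. It was 0.19 for loops up to 79 bases (645 introns), 0.34 for 80 to 105 bases (282) and 0.40 for loops over 105 bases (372). Whether library preparation has a part in this was not tested.

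Long runs of a single base went with fewer heat shock reads. Of 16 introns with a run of 11 to 20 equal bases in the loop, 0 lay above their peers and 10 below (62.5%), with a median difference of -1.42. With runs of 7 to 10 bases, 19 of 239 lay above and 53 below (7.95% and 22.2%), and with shorter runs 150 of 1044 lay above and 116 below (14.4% and 11.1%). Run classes were chosen after the values were seen, and GC content moves with them (medians of 25.3%, 28.6% and 30.7%). The longest run, of 20 bases, is in intron 2 of tif211, visible in the printed sequence. The intron of tho5, a gene of the THO complex of mRNA export, with a run of 17, had 13 heat shock reads and 300 rich media reads (-2.11). Intron 2 of the iron regulator fra2, with a run of 11, had 225 and 2966 (-1.85). Intron 2 of pre6, with a run of 18, had 80 and 343 reads and a difference of -0.65, which was not called.

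**Figure D4:**
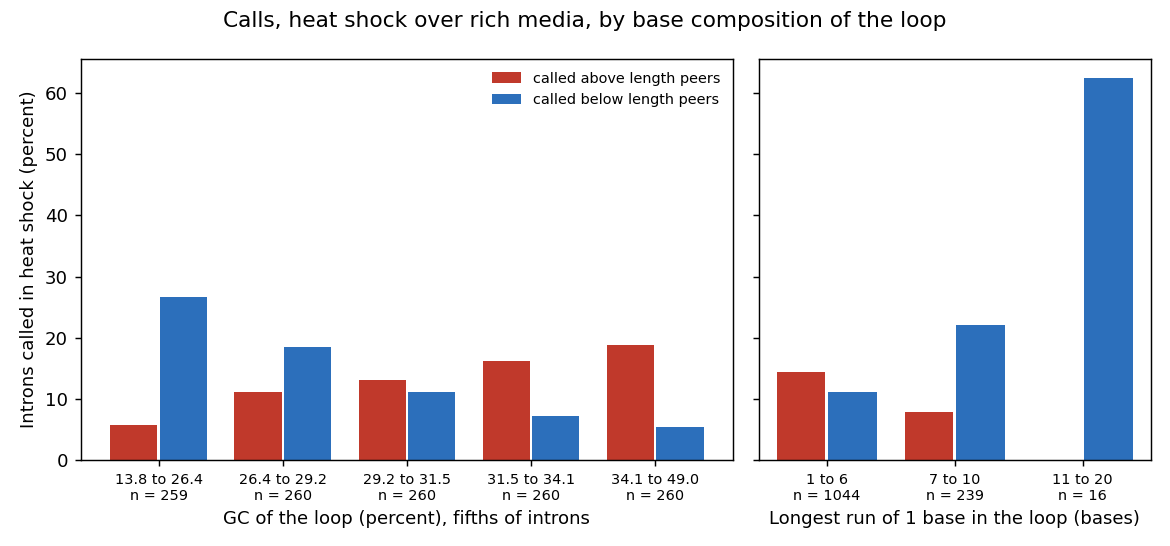
Percent of introns called above (red) and below (blue) their length peers in heat shock over rich media, by 5 groups of loop GC content (left) and by the longest run of 1 base in the loop (right), with the number of introns under each pair of bars. The red bars climb from 5.79% to 18.8% with GC content while the blue bars shrink from 26.6% to 5.38%, and at runs of 11 to 20 bases the blue bar stands at 62.5%.

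Calls also differed by splice site letters, with smaller contrasts than by GC content in the share of introns below their peers. The bases were read at each 5' splice site and branch point on the intron's own strand. Introns starting GTACGT (85 introns) lay above their peers in 23.5% and below in 10.6%, and those starting GTATGA (65) in 7.69% and 20%. The most common starts, GTAAGT (409) and GTATGT (328), lay above in 13.9% and 10.4% and below in 17.8% and 9.15%. By branch motif, CTAAC (680) gave 15.1% above and 14.9% below, CTAAT (282) 14.5% and 7.80%, and CTGAC (72) 5.56% and 19.4%. Both tlg1 and klp9 have CTGAC, as their printed sequences show. Place in the gene gave smaller contrasts than splice site letters in both shares. First introns of several lay above in 13.5% and below in 10.9% (267 introns), and last introns in 10.9% and 15.1% (357).

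Most introns with several branch points used 1 of them almost alone in both conditions, which leaves their shares little room to move. In 484 introns with several branch points and at least 50 reads in each condition, the share of reads at the most used branch point had a median of 99.97% in heat shock and 99.66% in rich media. It moved by at most 1 percentage point in 351 of them (72.5%). It moved by at least 5 points with Wilson intervals apart in 19 introns, 3.93%, of which 9 were higher in heat shock (1.86%) and 10 lower (2.07%). In 44 introns the main branch point had under 95% of the reads of both conditions together, a limit set after the values were seen. Their share moved by a median of 6.10 points and by at most 1 point in 4 of them, and 13 of the 44 were among the 19.

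The intron of sdh1, the flavoprotein subunit of succinate dehydrogenase, moved most. Its main branch point, in the motif CTAAA and 104 bases from the 5' splice site, took 658 of 1221 heat shock reads, or 53.9% (51.1% to 56.7%). In rich media it took 3679 of 4730 reads, or 77.8% (76.6% to 78.9%). The second branch point, in the motif CTAAC printed after it, gives a loop of 113 bases and took 552 heat shock reads and 1045 rich media reads. These loops lie on either side of the length step, which begins after 105 bases, and the move is to the longer one. The difference of the whole intron was -1.04 by listed length and -0.09 by loop length.

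In spt20, a subunit of the SAGA coactivator, the branch point of the overlapping downstream motif CTGAC took 68 of 90 heat shock reads, or 75.6% (65.8% to 83.3%), and 119 of 222 rich media reads, or 53.6% (47.0% to 60%). Intron 3 of apm1, a clathrin adaptor subunit, had 72.4% (68.1% to 76.3%) of 449 heat shock reads at its main branch point and 58.7% (57.3% to 60.1%) of 4511 rich media reads. The GTPase-binding protein gene rid1 had 100% of 50 and 87.2% of 86 reads. The shares were 97.9% in heat shock and 86.3% in rich media for intron 2 of the lunapark gene lnp1, and 96.0% and 86.6% for the ribose methyltransferase gene mrm1. Lower shares in heat shock were found for intron 2 of the septation GTPase gene spg1, with 87.2% in heat shock and 97.2% in rich media. The chloride channel gene SPBC887.02 had 89.4% and 98.4%, intron 2 of the DNA ligase gene lig4 had 89.7% and 97.8%, and the kinase gene rio1 had 67.0% and 75%. Reads moved to the branch point with the longer loop in 11 of the 19 introns, among them all 9 with a higher main share in heat shock.

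**Figure D5:**
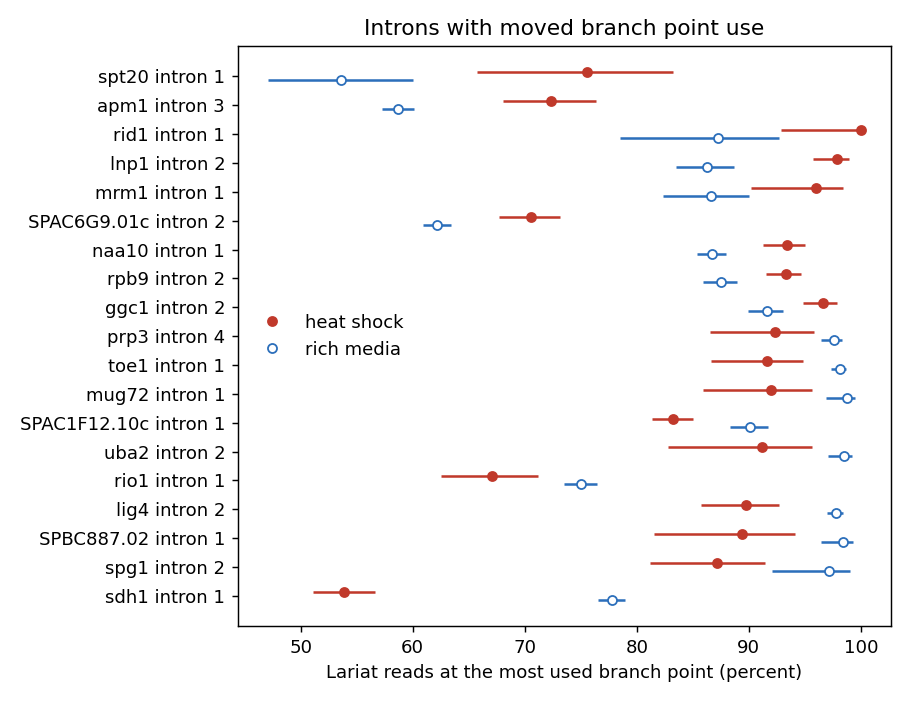
Percent of an intron's lariat reads at its most used branch point in heat shock (filled) and rich media (open), with 95% Wilson intervals, for the 19 introns called. The heat shock share of spt20 lies above its rich media share (75.6% and 53.6%) and that of sdh1 below (53.9% and 77.8%).

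Pooled over hosts, alternate splice sites took about the same share of reads in both conditions, but the kinds of site differed. Over 1195 alternates in 676 annotated host introns with at least 100 reads, alternates took 2111 heat shock reads, 0.660% of alternate and host reads, and 5778 rich media reads, 0.626%. The ratio of shares was 1.05 (1.00 to 1.11). It was below 1 with some other rules, at 0.792 with hosts from 20 reads and 0.699 as the median over 77 events. The limit of 20 reads lets in psg2, whose annotated site had 0 heat shock and 33 rich media reads. Its downstream 3' site alone had 837 heat shock and 5299 rich media reads, so the 0.792 rests largely on 1 site. Sites that give a longer loop than the host had a share of 0.432% in heat shock and 0.325% in rich media, a ratio of 1.33 (1.22 to 1.44). Sites that give a shorter loop had 0.550% and 0.650%, a ratio of 0.847 (0.794 to 0.903). By kind the ratio was 1.34 for 3' sites downstream of the annotated one and 1.38 for 5' sites upstream of it. It was 0.794 for upstream 3' sites and 0.801 for downstream 5' sites. With hosts from 20 reads the downstream 3' sites turned to 0.818, where psg2 held 837 of 1596 heat shock and 5299 of 7548 rich media reads. With hosts from 500 reads the upstream 5' sites were at 3.30 (2.62 to 4.15). That limit leaves out intron 1 of atg5, whose annotated form had 73 heat shock and 421 rich media reads. Its upstream 5' site held 40 of the 289 heat shock reads and 378 of the 660 rich media reads behind the 1.38. Each alternate was also set against its own host's ratio, a comparison added after the data were seen. With no length step, heat shock reads were 0.645 times those expected over all alternates. They were 1.67 times those expected for longer-loop sites and 0.464 times for shorter-loop sites. With the loop length trend taken into account, they were 0.992 times those expected for longer-loop sites and 1.25 times for shorter-loop sites.

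Of 77 alternates with at least 20 reads, 24 (31.2%) were more than 2-fold above their host beyond the length trend, with intervals clear of it, and 11 (14.3%) below. With no length step 19 were above their host and 23 below, so which direction has more calls rests on the length trend. The intron of ssz1, annotated as a heat shock protein, used an upstream 3' site with 24 heat shock reads beside 574 at the annotated site, or 4.01% (2.71% to 5.90%), and 1 rich media read beside 511, or 0.195% (0.034% to 1.10%). An upstream 3' site in the oxidoreductin gene ero11 had 24 heat shock reads and 0 rich media reads, a share of 14.8% (10.2% to 21.1%) against 0% (up to 2.32%). One in fta3, a centromere gene, had 44 and 0 reads, or 2.87% (2.15% to 3.83%) against 0% (up to 0.839%). A downstream 3' site of mug8 took 65.0% of its few heat shock reads, 13 against 7 at the annotated site, and 10.1% of its rich media reads, 24 against 214. Smaller shares were above in npt1 (4.42% and 2.44%) and pro2 (7.92% and 3.39%).

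Below their hosts were an upstream 3' site of cnb1, the regulatory subunit of calcineurin, with 0 heat shock reads (up to 2.69%) and 55 rich media reads (28.9%). A downstream 3' site of the shugoshin gene sgo1 had 0 heat shock reads (up to 13.3%) and 35 rich media reads (25.4%). In SPBC1711.15c an upstream 3' site had 1 heat shock read and 83 rich media reads, or 2.08% (0.369% to 10.9%) against 55.7% (47.7% to 63.4%). The spliced mRNA of that site was the only one among the 12 sites named here seen in polyadenylated RNA of all 4 single libraries, with 6 heat shock and 5 rich media junction reads in the dbr1 deletion and 9 and 7 in wild type, not scaled for depth. The sites of npt1, pro2 and rmt1 had junction reads in 1 to 3 of these libraries, and the other 8 had none. The others below were cid1 (0.215% and 1.72%), rpl35 (5.0% and 20.8%) and rmt1 (0.676% and 3.42%). By loop length rpl35 and rmt1 were no longer called. For rpl35 the log2 difference was -0.55, within 2-fold, and for rmt1 it was -1.88 with an interval reaching past 0 (-4.28 to 0.53). Over all, 24 alternates were above and 5 below by loop length.

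Some introns gave most of their reads as alternates, by the 3' site that the authors assigned. The reads place the branch point but not the 3' site. The one with the most heat shock reads was an upstream 3' site in intron 3 of spb1, an rRNA methyltransferase gene, with 2787 heat shock reads and 949 rich media reads, a scaled ratio of 8.88, where the annotated form had 6 and 4. The sequence at I:922748-922892 (plus strand) is printed with the branch motif, the AG assigned by the authors and the annotated AG in capitals, after the first 6 bases.
spb1 intron 3: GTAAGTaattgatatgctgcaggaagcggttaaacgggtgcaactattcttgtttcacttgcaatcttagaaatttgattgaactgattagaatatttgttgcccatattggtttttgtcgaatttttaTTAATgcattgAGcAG
Its loop of 133 bases lies beyond the length step. Other alternates of this type had shorter loops and lower ratios. A downstream 3' site of psg2 had 837 heat shock reads and 5299 rich media reads, a ratio of 0.477 with a loop of 78 bases. An upstream 3' site in intron 2 of ufe1 had 1081 and 2866 reads, a ratio of 1.14 with a loop of 76 bases. These were picked for their read numbers.

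Exon skips made up a larger part of the lariat reads after heat shock. Over 230 skips in 190 genes, 473 heat shock reads and 470 rich media reads were seen, or 11.4 and 3.75 per 10000 annotated reads. The ratio was 3.04 (2.67 to 3.46). A skip joins a 5' splice site to the branch point of a later intron, so its lariat holds the skipped exon and is long, with a median of 170 bases from the 5' to the 3' splice site. Given the ratios of annotated introns nearest in length, 386 heat shock reads were expected in 229 skips with a length taken from the reference. The ratio of observed to expected was 1.23 (1.08 to 1.4). For 19 skips over 300 bases there were no measured annotated introns of like length, as the longest has 300 bases, so the value of the longest introns was used.

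Past 2-fold of their length with intervals clear were 8 skips above (3.49% of 229) and 2 below (0.873%). No read minimum was set for skips. Of the 230, 48 were seen in heat shock only, 73 in rich media only and 56 in both, many with too few reads to be called. These percents therefore cannot be set beside those of introns with at least 50 reads. The skip between introns 1 and 2 of SPCC126.11c had 32 heat shock reads and 11 rich media reads, a log2 difference of 1.35 (0.37 to 2.53). The RNA polymerase II subunit gene rpb3 had 16 and 4 reads (1.72, interval 0.22 to 3.89), the diphthamide gene dph3 had 13 and 1 (2.90, 0.69 to 8.84), and the proteasome gene pre3 had 9 and 2 (2.09, 0.07 to 5.59). The others above rest on few reads. The skips of ric8 and snx3 each had 6 and 0 reads (3.78), that of clr6 had 5 and 0 (3.66), and that of SPBC11C11.01 had 10 and 1 (2.44). Below were the skip of rpp1, with 3 and 13 reads (-2.38, interval -5.0 to -0.68), and that of the nuclear envelope gene bqt4, with 0 and 19. The skips with the most reads, in the checkpoint kinase gene cds1 (38 heat shock and 18 rich media reads) and in pwi1 (32 and 23), were not past 2-fold of their length.

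Introns outside the annotation were set against annotated introns of like length, and more of those measured lay below than above. There were 7402 such introns with complete counts, with 34211 heat shock reads and 82593 rich media reads, a scaled ratio of 1.25 (1.24 to 1.27). Few introns carry these sums, and without the 1 with the most reads, 6394 in heat shock and 3755 in rich media, the ratio was 1.07. By the authors' classes it was 2.42 for intergenic introns, 1.59 for noncoding RNAs and 0.638 for introns inside exons. Without the 3 introns with the most reads in each class, left out after the values were seen, the ratio was 1.00, 1.08 and 1.28, and the order of the classes turned. The classes' median differences from annotated introns of like length were -0.24, -0.49 and -0.15. Of 167 with at least 50 reads, 26 were above annotated introns of like length (15.6%) and 44 below (26.3%), with a median difference of -0.24.

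The largest difference above was at an intron in the 3' untranslated region of prp3, a spliceosome gene, with 122 heat shock reads and 82 rich media reads (2.90). Another in that region of SPAC343.20 had 1333 and 1570 reads (1.96), and one of SPBP8B7.32, whose annotated intron is also above its peers, had 298 and 399 (1.97). An intergenic intron starting at position 1308402 of chromosome II had 131 heat shock reads and 35 rich media reads (1.97). It lies on the minus strand and overlaps the intron with the most reads, which starts at 1308191 on the plus strand (0.85). The introns of nas2 (1.77) and vps901 (1.71) completed the 6 farthest above. Farthest below was an intron in the 5' region of ubp11, with 0 heat shock reads and 68 rich media reads, at least 4.24-fold below. The 3' region of sif2 held one with 9 and 56 reads (-3.0), and an intergenic one starting at position 4302946 of chromosome II had 2 and 60 (-2.77). Next were those of SPNCRNA.652, with 3 and 106 reads (-2.66), and of SPAC8E11.08c, with 6 and 153 (-2.53). The intron of SPBC530.07c (13 and 60 reads) was at -2.57 by length but -0.07 by loop length, as its loop has 81 bases and its length is 147.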

How the data were processed

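Lariat reads were deposited by the authors as whole-number counts per lariat joint, with the libraries of a condition summed and no scaling for depth. The reads' own classes (intron, exon, rRNA), intron lengths, exon lengths and splice site positions were used as deposited, as other values assigned by the authors. The submitters' processing notes name ASM294v2. Sequences and intron ends were read from ASM294v3 after all 17799 branches were checked on it. Which aligner was run is not stated in the sources used. RNA-seq junction counts are as deposited by the authors, per library.

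Members, gene lists and tests were chosen with earlier results of these data known. Rows whose 3 conditions did not add up to the total were left out (46 rows, 406012 reads, which took out 45 introns). Branch points of an intron were added. Each intron was compared with 100 neighbours in length. Ratios used Clopper-Pearson and shares Wilson intervals at 95%, and 3 reads stood in for 0. Lengths are as listed, 1 base above the reference intron for 2773 of 2774 matched introns. Unannotated introns were joined by 5' splice site and branch point to their 3' splice site. Intervals of alternates against hosts used the log odds. The rule for named introns took the 15 largest differences in each direction among those called, the 5 largest bounds with 0 reads, 4 of each of 14 gene lists, 5 genes with the widest gap between introns, and 6 events in each direction. Other introns named were chosen after their values were seen. The measure was tested on simulated data. The work used SciPy 1.17.1, pandas 2.3.3, matplotlib 3.10.9 and NumPy 2.4.6 under Python 3.11.15. Alternatives were other peer numbers, read minimums, pseudocounts, scaling, loop length and event choices. Loop length for introns outside the annotation and ratios within hosts for alternates, and classes without their deepest introns, were added after seeing the data. A result for 1 ribosomal protein is not reported here.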

Additional observations from a re-analysis of the deposited data

How the results depend on the processing

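Without the length step, 286 annotated introns were more than 2-fold above and 544 below when scaled by annotated reads, and 281 and 555 when scaled by all lariat reads, against 169 and 179 with it. Of the 169 and 179, 87 and 124 were among those scaled by annotated reads. With 200 reads or more the counts were 100 and 111, and with introns of 1 branch point only 80 and 96, where fewer introns were measured (760 and 649). Counts with 50 or 200 neighbours, from 20 reads, a pseudocount of 1 or loop length stayed within 1.5 times. By loop length 145 of the 169 and 153 of the 179 were called again. Without the length step bor1 intron 2 was at -0.42 and -0.46 and vps4 intron 1 at -9.12e-05 and -0.040, by annotated and by all reads. Other values of single named introns kept direction and call in 282 cases and direction only in 14. The ratio of alternate shares was 0.792 with hosts from 20 reads, which rests largely on psg2. It was 1.13 with hosts from 500 and 0.699 as a median over events. Within hosts, an alternative added after the data were seen, it was 0.645 with no length step, 0.907 against length and 1.13 against loop length. The exon skip ratio was 1.23 against length. Unannotated introns from 20 reads gave 57 above and 87 below, and against each other 42 above. Without the 3 introns with the most reads the ratio of introns inside exons was 1.28. Moved branch points numbered 10 with 200 reads in each condition, 33 at 2 percentage points and 6 at 10 points. Causes were not tested. Introns with rich media reads only numbered 803. No paired analysis was possible because the replicates of each condition are summed in 1 column.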
